A study of Mus musculus with 34 samples.

Results

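The mitochondrial respiratory chain and ATP synthase are built from many small subunits, and most of these are encoded in the nucleus. The genes described here are the protein-coding nuclear mouse genes whose symbols start with Nduf, Sdh, Uqcr, Atp5, Cox4, Cox5, Cox6, Cox7 or Cox8, which gave 93 of 22219 protein-coding nuclear genes in the annotation of mm9. Of these 93 oxidative phosphorylation (OXPHOS) genes, 81 encode subunits, namely 36 of complex I, 4 of complex II, 8 of complex III, 18 of complex IV and 15 of complex V. A further 6 are assembly factors (*Ndufaf1* to *Ndufaf4*, *Sdhaf1* and *Sdhaf2*), and 6 carry the prefix but were counted as neither (*Ndufa4l2*, *Cox7a2l*, *Cox4nb*, *Atp5s*, *Atp5sl* and *Atp5l-ps1*). *Ndufa4* was counted with complex IV, where its product is found, and 7 of the 18 complex IV genes are isoforms of other tissues such as muscle and testis.

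Binding near these genes was read from ChIP-seq peak lists of male C57B/6 mouse liver, the strain name as the labels spell it, at 10 weeks of age and zeitgeber time 10. HDAC3 and PROX1 were each mapped in 3 control livers, and HNF4α in 2 livers of HNF4A floxed mice, whose *Hnf4α* gene carries loxP sites. The study describes infecting the floxed control mice with AAV8 carrying *Egfp* under TBG, a hepatocyte promoter, whereas the labels of the HDAC3 and PROX1 livers say control only. The authors pooled the livers of each factor and deposited 1 list per factor, with 21247 peaks for HDAC3, 27423 for PROX1 and 24253 for HNF4α. The spread between livers and the depth of the libraries are therefore unknown, the 95% Wilson intervals given below cover counting error over genes or peaks only, and a gene without a listed peak cannot be called unbound.

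Complexes I to IV pass electrons from NADH and succinate to oxygen and, except for complex II, pump protons, and complex V uses the proton gradient to make ATP. HDAC3 is a histone deacetylase that acts in corepressor complexes, PROX1 is a homeobox factor found with HDAC3 in liver, and HNF4α is a nuclear receptor that marks hepatocytes. Promoters of OXPHOS genes are known for sites of NRF1, the ETS factor GABP, YY1 and the estrogen-related receptors (ERR). The labelled tissue was checked with marker genes. All 8 hepatocyte markers, among them *Alb* and *Ttr*, had a co-bound HDAC3-PROX1 peak and an HNF4α peak within 10 kb of a transcription start site (TSS). Of 15 markers of Kupffer, endothelial, stellate, bile duct and lymphoid cells, 0 had a co-bound or an HNF4α peak, and 1 had a PROX1-only peak.

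A co-bound peak is one with identical coordinates in the HDAC3 and PROX1 lists, and HDAC3-only and PROX1-only peaks are listed for that factor alone. Distances run from the peak centre to the nearest TSS of the gene, with negative values upstream. The sequences below are the peaks on which the account of the promoters turns, read from NCBIM37, which is mm9, on the strand of the gene. Capitals mark words that were searched on both strands, which are CAAAGTCCA for HNF4 with at most 1 mismatch, TCAAGGTCA for ERR, GCGCATGCG for NRF1, CCGGAAGT for ETS factors and AAGATGGC for YY1, the last 4 without mismatch, and TTGCGCAA for C/EBP with at most 1 mismatch. Peaks that overlap an untranslated region are not shown. The first 4 are HNF4α promoter peaks, at chr10:127519922-127520088 (*Atp5b*, plus strand), chr11:115280061-115280204 (*Atp5h*, minus strand), chr1:58642353-58642513 (*Ndufb3*, plus strand) and chr4:24824195-24824361 (*Ndufaf4*, plus strand). They are shown because they carry the highest printable HNF4α scores at a promoter or a word for HNF4.
Atp5b HNF4α peak: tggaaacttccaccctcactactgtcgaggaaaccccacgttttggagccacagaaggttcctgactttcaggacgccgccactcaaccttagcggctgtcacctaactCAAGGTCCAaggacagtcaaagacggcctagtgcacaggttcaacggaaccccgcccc
Atp5h HNF4α peak: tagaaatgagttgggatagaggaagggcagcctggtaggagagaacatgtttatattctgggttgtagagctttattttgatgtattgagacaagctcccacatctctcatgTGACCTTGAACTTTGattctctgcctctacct
Ndufb3 HNF4α peak: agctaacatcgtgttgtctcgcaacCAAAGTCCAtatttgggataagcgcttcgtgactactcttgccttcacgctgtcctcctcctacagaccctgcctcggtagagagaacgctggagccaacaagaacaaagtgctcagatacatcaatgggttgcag
Ndufaf4 HNF4α peak: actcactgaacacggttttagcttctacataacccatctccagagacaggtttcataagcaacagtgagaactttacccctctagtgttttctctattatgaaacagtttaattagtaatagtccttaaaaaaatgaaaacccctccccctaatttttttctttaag
In the *Atp5h* peak the words for ERR (bases 113 to 121) and HNF4 (bases 119 to 127) share 3 bases, so that both capitals form 1 run. This peak lies in an intron of *Atp5h*, near an internal TSS. The *Ndufb3* word matches without mismatch, that of *Atp5b* has 1 mismatch, and the *Ndufaf4* peak, although its score of 73.5 is the highest at any OXPHOS promoter, holds none of the words.

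The next 4 are promoter peaks of HDAC3 or PROX1, shown for the contrast between co-bound and single-factor sites. They lie at chr16:84836507-84836706 (*Atp5j*, co-bound, minus strand), chr6:11857529-11857728 (*Ndufa4*, HDAC3-only, minus strand), chr13:73466051-73466250 (*Ndufs6*, HDAC3-only, minus strand) and chr17:66451096-66451295 (*Ndufv2*, PROX1-only, minus strand). The last sequence, at chr11:53236691-53236890, is the co-bound distal peak of *Uqcrq* (minus strand) that carries the highest HNF4α score near any OXPHOS gene.
Atp5j co-bound peak: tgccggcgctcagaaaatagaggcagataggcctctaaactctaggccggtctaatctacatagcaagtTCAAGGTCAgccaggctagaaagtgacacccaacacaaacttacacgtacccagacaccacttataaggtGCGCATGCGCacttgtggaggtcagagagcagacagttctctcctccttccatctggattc
Ndufa4 HDAC3-only peak: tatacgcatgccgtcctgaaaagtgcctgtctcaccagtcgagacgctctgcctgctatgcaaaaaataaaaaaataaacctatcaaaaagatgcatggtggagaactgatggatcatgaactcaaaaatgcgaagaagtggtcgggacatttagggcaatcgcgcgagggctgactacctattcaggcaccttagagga
Ndufs6 HDAC3-only peak: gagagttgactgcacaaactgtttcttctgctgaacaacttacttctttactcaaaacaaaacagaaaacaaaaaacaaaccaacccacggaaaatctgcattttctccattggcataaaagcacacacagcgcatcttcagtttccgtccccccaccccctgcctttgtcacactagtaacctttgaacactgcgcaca
Ndufv2 PROX1-only peak: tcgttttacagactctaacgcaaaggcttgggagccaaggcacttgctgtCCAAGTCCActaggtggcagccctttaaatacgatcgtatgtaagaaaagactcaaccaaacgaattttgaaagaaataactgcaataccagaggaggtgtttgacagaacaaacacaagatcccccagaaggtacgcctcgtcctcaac
Uqcrq distal co-bound peak: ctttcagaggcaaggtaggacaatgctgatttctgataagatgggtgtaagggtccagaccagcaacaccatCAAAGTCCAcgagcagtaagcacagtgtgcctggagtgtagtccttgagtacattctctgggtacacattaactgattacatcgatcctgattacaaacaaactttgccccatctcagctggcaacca
The *Atp5j* peak holds an ERR word and 2 overlapping NRF1 words, 1 on each strand, and neither HDAC3-only peak holds any word. The *Ndufv2* peak holds an HNF4 word with 1 mismatch but no listed HNF4α peak, and the *Uqcrq* peak holds the HNF4 word without mismatch.

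Co-bound peaks were listed near few OXPHOS genes. Of the 93 genes, 9 (9.68%, CI 5.18 to 17.4) had a co-bound peak within 10 kb, beside 20.2% of all protein-coding genes. An HDAC3 peak of either class was listed near 13 genes (14%, CI 8.35 to 22.5), beside 21.7% of all genes, and a PROX1 peak near 20 genes (21.5%, CI 14.4 to 30.9), beside 25%. With the window at 20 kb the co-bound count was 22 (23.7%, CI 16.2 to 33.2), beside 28.2% of all genes, and the HDAC3 count 29 (31.2%, CI 22.7 to 41.2), beside 30.1%. Peaks of 1 factor alone were listed at shares whose intervals include those of all genes. HDAC3-only peaks were found near 4 genes (4.3%, CI 1.69 to 10.5) beside 3.01% of all genes, and PROX1-only peaks near 13 (14%, CI 8.35 to 22.5) beside 10.9%. Combined, 24 OXPHOS genes (25.8%, CI 18 to 35.5) had a peak of HDAC3 or PROX1, close to the 26.4% of all genes. HNF4α peaks were near 30 OXPHOS genes (32.3%, CI 23.6 to 42.3), beside 29.1%, and 41 genes (44.1%, CI 34.4 to 54.2) had a peak in at least 1 list, beside 34.1%.

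At promoters, taken as 1 kb to either side of a TSS, the lists held 8 OXPHOS genes with HDAC3 or PROX1 (8.6%, CI 4.42 to 16.1), beside 9.19% of all genes. Only 2 of them, *Uqcrq* and *Atp5j*, were co-bound (2.15%, CI 0.592 to 7.51), beside 6.27%. An HDAC3 peak of either class was listed at 4 promoters (4.3%, CI 1.69 to 10.5), beside 7.27% of all genes, and a PROX1 peak at 6 (6.45%, CI 2.99 to 13.4), beside 8.22%. HDAC3-only peaks stood at 2 promoters (2.15%, CI 0.592 to 7.51) against a background of 1.14%, and PROX1-only peaks at 4 (4.3%, CI 1.69 to 10.5) against 2.55%. HNF4α peaks were listed at 14 promoters (15.1%, CI 9.18 to 23.7), beside 11.2% of all genes, and 19 promoters (20.4%, CI 13.5 to 29.7) had a peak of any list, beside 14.6%. Among OXPHOS promoters, 14 thus carried an HNF4α peak and 2 a co-bound peak.

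The same counts were made for 26 genes of fatty acid oxidation, the pathway that feeds electrons into the chain, and for 77 genes of ribosomal proteins, which are also expressed in every cell. Co-bound peaks within 1 kb were listed at 17 fatty acid oxidation genes (65.4%, CI 46.2 to 80.6), among them *Hadha* and *Acadm*, beside 6.27% of all genes. At ribosomal protein genes they numbered 2 (2.6%, CI 0.715 to 8.98), a share close to the 2.15% of OXPHOS genes. Within 10 kb the co-bound counts were 22 of 26 (84.6%, CI 66.5 to 93.8) and 20 of 77 (26%, CI 17.5 to 36.7), beside 20.2% of all genes. The ribosomal interval includes that share. The interval of the OXPHOS genes at 10 kb lies far under that of fatty acid oxidation and ends just under that of the ribosomal protein genes. No test of one gene list against another was made.

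**Figure D1:**
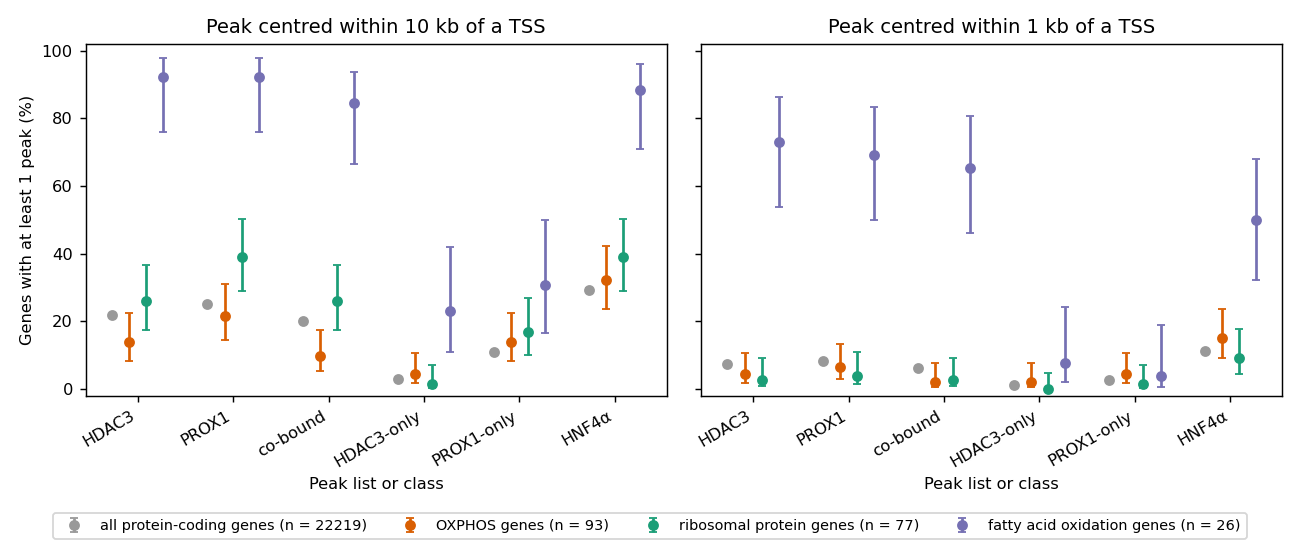
Share of genes with at least 1 peak centred within 10 kb (left) or 1 kb (right) of a TSS, by peak list or class, for all protein-coding genes, OXPHOS genes, ribosomal protein genes and fatty acid oxidation genes. Points are shares in percent and bars are 95% Wilson intervals. Co-bound peaks reach 9.68% of OXPHOS genes within 10 kb and 84.6% of fatty acid oxidation genes.

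Over all genes 11.2% had an HNF4α peak at the promoter, and with every listed peak counted the largest share was that of complex V. Of its 15 genes, 6 (40%, CI 19.8 to 64.3) had an HNF4α peak within 1 kb, against 6 of 36 (16.7%, CI 7.87 to 31.9) in complex I, 1 of 8 in complex III, 0 of 4 in complex II and 0 of 18 (upper bound of the interval 17.6%) in complex IV. With all 18 complex IV genes counted, the intervals of complex V and complex IV do not overlap, whereas that of complex I overlaps both. Without the isoforms of other tissues, complex IV had 0 of 11 (upper bound of the interval 25.9%), and this interval overlaps that of complex V. With the 5′ end of the gene as the only TSS, *Atp5d* and *Atp5h* were lost and complex V had 4 of 15 (26.7%, CI 10.9 to 52), an interval that overlaps that of complex IV. *Atp5b*, the catalytic β subunit, had a peak with a score of 72.1 at 324 bp upstream. The score is the one HOMER gave the pooled HNF4α peak, with a median of 41.9 over the list. *Atp5o*, the stalk subunit OSCP, had a score of 41.5 at 53 bp upstream. *Atp5h*, another subunit of the peripheral stalk, had 26.9 in its own intron, 78 bp upstream of an internal TSS. The peaks of *Atp5k* (subunit e, score 26.4), *Atp5d* (the δ subunit of the central stalk, 25.4) and *Atp5g2* (a gene for the c ring, 25.4) lay 127, 300 and 387 bp downstream. For *Atp5d* too, this TSS was an internal one. Hence 5 of the 6 complex V promoter peaks scored below the list median. With only scores above the median, the order was not kept. Complex V then had 1 of 15 genes (6.67%, CI 1.19 to 29.8) and complex I 3 of 36 (8.33%, CI 2.87 to 21.8), beside 5.27% of all genes.

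None of these 6 peaks touched a peak of HDAC3 or PROX1. Conversely, the co-bound promoter peak in complex V, that of *Atp5j* (the peripheral stalk subunit F6), lay 736 bp upstream and was not covered by an HNF4α peak. It sits in an intron of *Gabpa*, the gene of the GABP DNA-binding subunit, whose TSS is 1238 bp away. *Atp5g1*, one of 3 genes that encode the same mature c subunit, had a co-bound peak 1.27 kb upstream without HNF4α, and *Atp5g3*, another of them, a PROX1-only peak 8.6 kb upstream. The distal sites of complex V also included an HDAC3-only peak in a coding exon of *Atp5b*, 5.11 kb downstream. An HNF4α peak of score 33.9 covered it by 78.5%, and the nearest TSS to both was that of *Baz2a*. A PROX1-only peak 4.38 kb downstream of the *Atp5d* TSS was touched by an HNF4α peak of score 82.5, the highest near a complex V gene, and both were nearer to the TSS of *Midn*. *Atp5j2*, subunit f, had an HNF4α peak of score 36.3 at 5.08 kb. The other distal HNF4α peaks of complex V, of *Atp5b*, *Atp5d* and *Atp5o*, had scores of 20.3, 53.2 and 38.2. Of these, that of *Atp5b* lay 204 bp from the TSS of *Baz2a*, and that of *Atp5d* 534 bp from the TSS of *Midn*. The remaining 5 genes, *Atp5a1*, *Atp5c1*, *Atp5e*, *Atp5f1* and *Atp5l*, had no peak in any list, and they include those of the α and γ subunits of the catalytic head and its shaft.

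**Figure D2:**
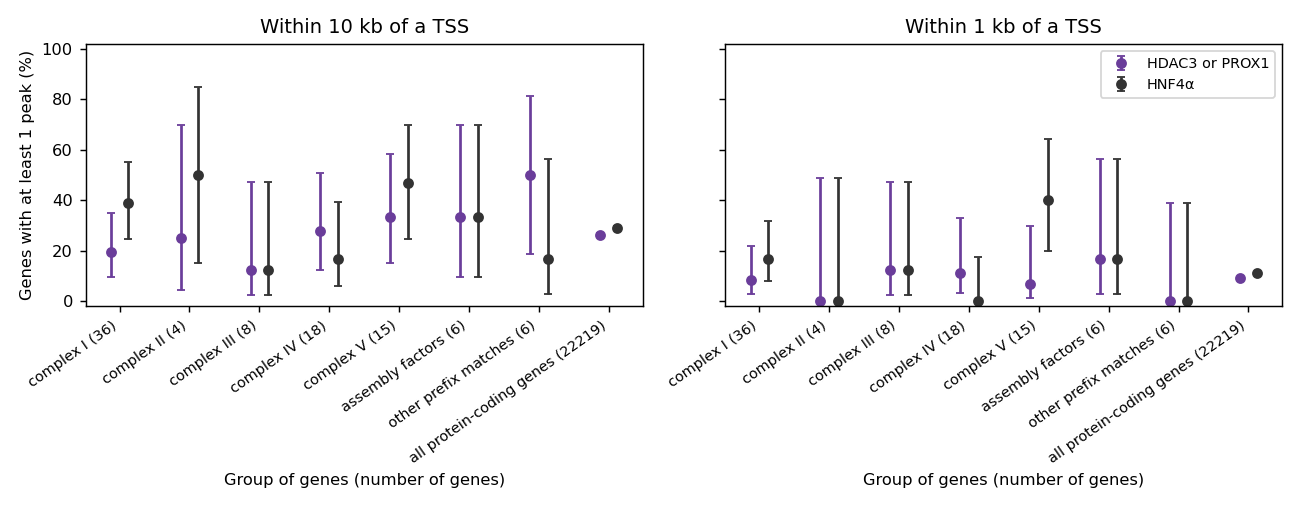
Share of genes with at least 1 peak of HDAC3 or PROX1 (purple) or of HNF4α (black) within 10 kb (left) and 1 kb (right) of a TSS, by complex, with 95% Wilson intervals and the number of genes in brackets. The HNF4α share within 1 kb is 40% for complex V and 0 for complexes II and IV.

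In complex I, which takes electrons from NADH, 16 of 36 genes (44.4%, CI 29.5 to 60.4) had a peak within 10 kb, beside 34.1% of all genes. For HNF4α there were 14 (38.9%, CI 24.8 to 55.1), beside 29.1%, and for HDAC3 or PROX1 7 (19.4%, CI 9.75 to 35), beside 26.4%. Each of these intervals includes the share of all genes. Each of the 3 genes with HDAC3 or PROX1 at the promoter had a peak of a single factor. *Ndufs6*, an accessory subunit of the electron input arm, had an HDAC3-only peak 160 bp upstream, of which 25% was covered by an HNF4α peak of score 51.4. *Ndufv2*, a core iron-sulphur subunit, had a PROX1-only peak 296 bp upstream, which touched no HNF4α peak. The other 5 complex I genes with HNF4α at the promoter were accessory or core subunits without HDAC3 or PROX1 there. *Ndufa2* had a score of 62.2 at 121 bp downstream, *Ndufs8*, a core iron-sulphur subunit, 45.7 at 306 bp downstream, and *Ndufa5* 32 at 186 bp downstream. *Ndufb2* also scored 32, at 111 bp upstream, and *Ndufb3* 26.9 at 795 bp upstream, where the nearest TSS was that of *Fam126b*. The *Ndufa2* peak also lay 229 bp from the TSS of *Ik*, and the *Ndufa5* peak 318 bp from that of *Asb15*.

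Several distal peaks of complex I lay closer to other genes. *Ndufs8* had 2 co-bound peaks, 1 in its own intron at 2.26 kb without HNF4α and 1 at 7.28 kb, in an intron of *Tcirg1* and 208 bp from the TSS of that gene, of which 43% was covered by HNF4α with a score of 23.1. *Ndufa7* had a co-bound peak in its own intron at 4.47 kb, with an HNF4α score of 46.6, and *Ndufs7*, a core subunit, a PROX1-only peak in its intron at 1.61 kb with a score of 35.3. *Ndufa3* had an HDAC3-only peak 8.13 kb upstream, nearer to *Oscar*, without HNF4α. *Ndufa6* had the highest HNF4α score of complex I, 104.6, at an intergenic site 7.26 kb upstream that touched no HDAC3 or PROX1 peak. *Ndufa8*, *Ndufa13*, *Ndufb9* and *Ndufb10* had distal HNF4α peaks alone, with scores from 26.4 to 43.8. No peak was listed near the other 20 complex I genes, among them the core subunits *Ndufs1*, *Ndufs3* and *Ndufv1*, and *Ndufs4*, *Ndufs5*, *Ndufv3*, *Ndufa1*, *Ndufa9*, *Ndufa10*, *Ndufa11*, *Ndufa12*, *Ndufab1*, *Ndufb4*, *Ndufb5*, *Ndufb6*, *Ndufb7*, *Ndufb8*, *Ndufb11*, *Ndufc1* and *Ndufc2*.

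**Figure D3:**
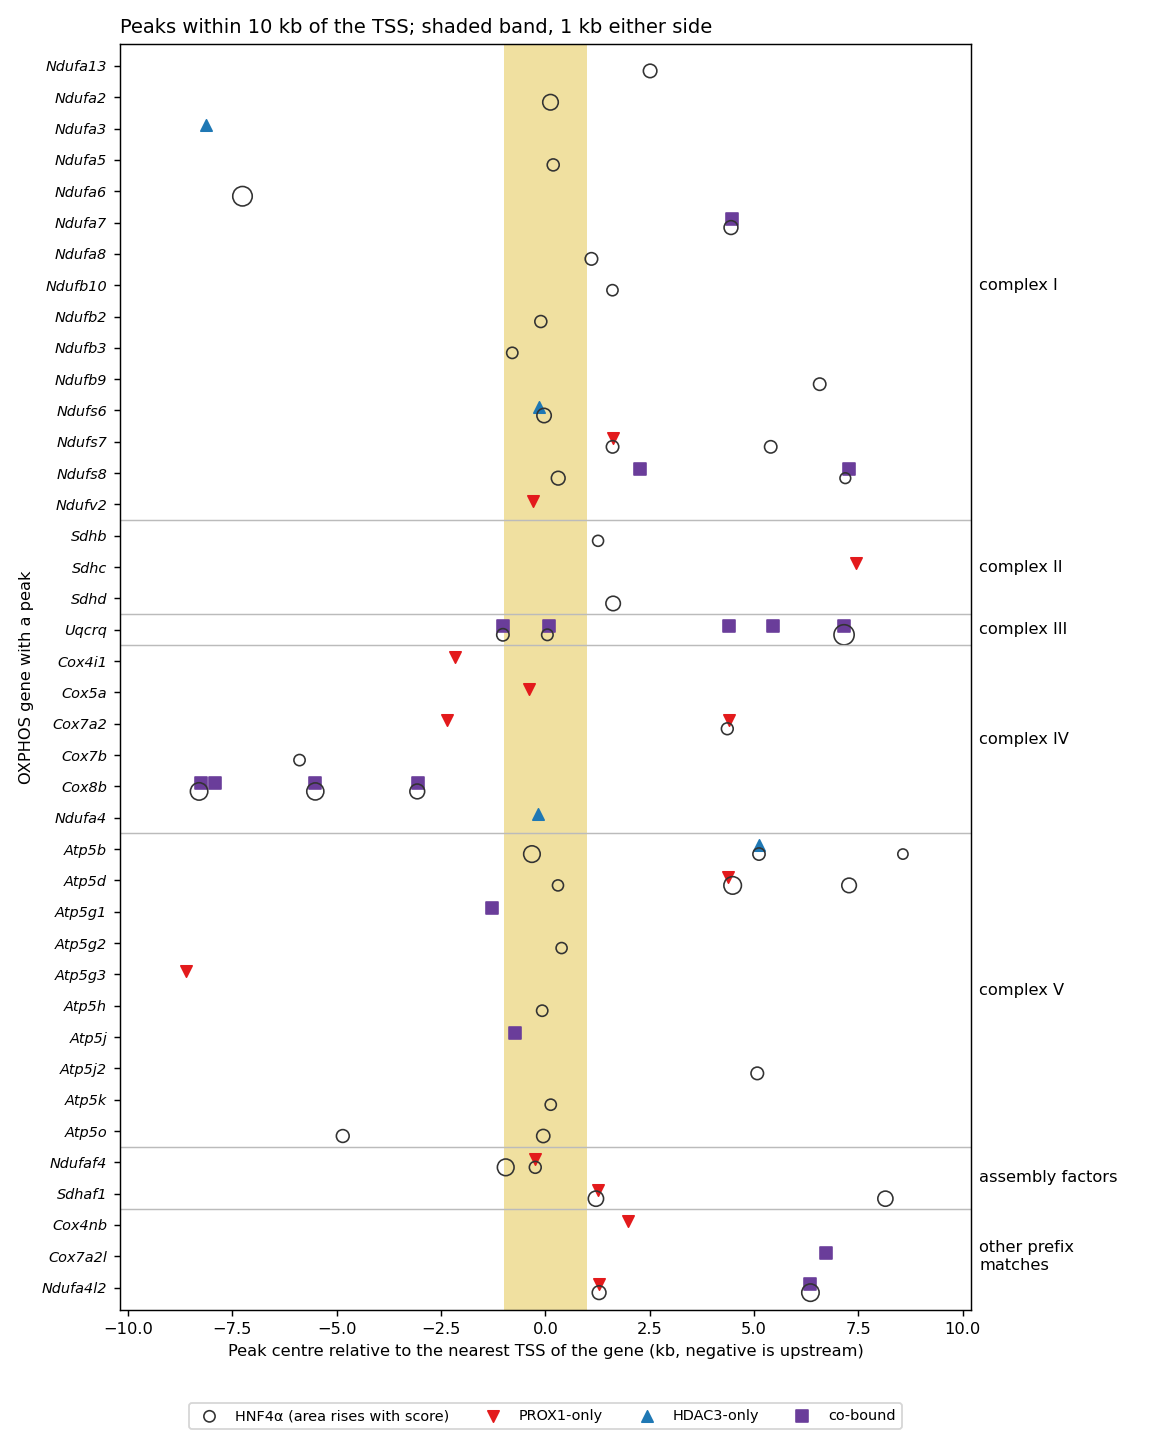
Peaks near 40 of the 41 OXPHOS genes with at least 1 peak, placed by the distance of the peak centre to the nearest TSS (kb, negative is upstream), with 1 gene per line grouped by complex. Squares are co-bound, upward triangles HDAC3-only and downward triangles PROX1-only peaks, and circles are HNF4α peaks whose area rises with the score. The shaded band, 1 kb to either side, holds 2 squares and 15 circles.

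Complex II, succinate dehydrogenase, had no peak at a promoter. *Sdhb*, the iron-sulphur subunit, and *Sdhd*, a membrane anchor, had an HNF4α peak in their own introns at 1.26 kb (score 25) and 1.62 kb (score 52.3). *Sdhc*, the other anchor, had a PROX1-only peak at 7.43 kb, and *Sdha*, the flavoprotein, had no peak. In complex III, which passes electrons to cytochrome *c*, all peaks belonged to *Uqcrq*, a small subunit, and the other 7 genes, *Uqcrc1*, *Uqcrc2*, *Uqcrfs1*, *Uqcrb*, *Uqcrh*, *Uqcr10* and *Uqcr11*, had none. *Uqcrq* had 5 co-bound peaks, more than any other OXPHOS gene. One lay in its untranslated region 94 bp downstream of the TSS, covered by an HNF4α peak of score 28.3, and another 1.02 kb upstream with a score of 34.9. The other 3, at 4.4, 5.46 and 7.15 kb, were nearest to *Leap2*, which encodes a peptide secreted by liver. The farthest of them was 118 bp from the *Leap2* TSS and had the HNF4α score of 113.1.

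In complex IV, cytochrome *c* oxidase, HDAC3 or PROX1 was listed near 5 of 18 genes (27.8%, CI 12.5 to 50.9), close to the 26.4% of all genes. HNF4α was listed near 3 (16.7%, CI 5.84 to 39.2), beside 29.1%, which lies inside that interval. *Ndufa4* had an HDAC3-only peak 182 bp upstream and *Cox5a*, a subunit of the matrix side, a PROX1-only peak 398 bp upstream, both without HNF4α. *Cox4i1*, the ubiquitous form of subunit 4, shared its PROX1-only peak, 2.16 kb upstream, with its neighbour *Cox4nb*. *Cox7a2*, the liver form of subunit 7a, had a PROX1-only peak 2.37 kb upstream and another in its untranslated region at 4.41 kb, the latter with an HNF4α score of 30.6. The co-bound peaks of complex IV were all 4 of *Cox8b*, the heart and muscle form of subunit 8, at 3.04, 5.53, 7.91 and 8.25 kb upstream. For all 4 the nearest TSS was that of *Cox8b*, and 3 were covered by HNF4α, with scores of 55.1, 77.7 and 81. *Cox7b* had a distal HNF4α peak of score 26.9, nearer to *Magt1*. The other 6 isoforms of other tissues, *Cox4i2*, *Cox6a2*, *Cox6b2*, *Cox7a1*, *Cox7b2* and *Cox8c*, and 6 common subunits, *Cox5b*, *Cox6a1*, *Cox6b1*, *Cox6c*, *Cox7c* and *Cox8a*, had no peak. *Cox8a* is the liver counterpart of *Cox8b*.

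Outside the subunits, *Ndufaf4*, an assembly factor of complex I, had a PROX1-only peak 254 bp upstream, of which 51.5% was covered by an HNF4α peak of score 31.1, beside its HNF4α peak of score 73.5 at 952 bp. *Sdhaf1*, which helps to insert iron-sulphur clusters into complex II, had a PROX1-only peak at 1.27 kb with an HNF4α score of 59.4, nearer to another gene. *Ndufaf1* to *Ndufaf3* and *Sdhaf2* had no peak. Of the other prefix matches, *Ndufa4l2*, a hypoxia-induced relative of *Ndufa4*, had a PROX1-only peak in its intron (HNF4α score 45.7) and a co-bound peak at 6.34 kb in *Shmt2* (score 81). *Cox7a2l*, a supercomplex factor, had an intronic co-bound peak at 6.72 kb without HNF4α, and *Atp5s*, *Atp5sl* and *Atp5l-ps1* had no peak. In all, 69 of the 93 genes had 0 peaks of HDAC3 or PROX1, 18 had 1, 3 had 2 (*Ndufs8*, *Cox7a2* and *Ndufa4l2*), 1 had 3, and *Cox8b* and *Uqcrq* had 4 and 5. At the limit of the window, the farthest peak inside among the genes described was the PROX1-only peak of *Atp5g3* at 8.6 kb, and the nearest outside were an HNF4α and a PROX1-only peak 10.3 kb from *Atp5j*.

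Promoter and distal sites were compared over distinct peaks. The 93 windows held 18 co-bound peaks, 2 at promoters and 16 distal, 4 HDAC3-only peaks (2 and 2), 13 PROX1-only peaks (4 and 9) and 46 HNF4α peaks (15 and 31). Of the HDAC3 or PROX1 peaks at promoters, 6 of 8 (75%, CI 40.9 to 92.9) were not co-bound, against 11 of 27 distal ones (40.7%, CI 24.5 to 59.3). The difference was 34.3 percentage points (CI -4.53 to 58.4) and did not pass the two-sided Fisher's exact test (p = 0.12, and 0.24 after Benjamini-Hochberg adjustment over the 2 tests made). It passed before adjustment when the promoter was set at 500 bp or at 2 kb (exact p = 0.041 for each) or the window at 20 kb (exact p = 0.047). It did not pass with subunit genes only (32.3 points, exact p = 0.2) or with the 5′ end as the only TSS (27 points, exact p = 0.4). Nor did it pass with only the peaks whose nearest TSS was that of the OXPHOS gene (31.2 points, exact p = 0.21). Over the peaks of all genes, 33.3% of promoter peaks and 28.7% of distal peaks were not co-bound. HNF4α covered at least 50% of 1 of the 2 co-bound promoter peaks and of 9 of the 16 distal ones (56.2%, CI 33.2 to 76.9), a difference of -6.25 points (CI -51.8 to 40.4, Fisher's exact p = 1, adjusted p = 1), so that with 2 promoter peaks almost any difference could have gone undetected. Over the co-bound peaks of all genes, HNF4α covered 54.7% of promoter peaks and 60.4% of distal peaks. Peaks stand in for sites and not for replicate livers, and several belong to the same gene.

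Of the 16 distal co-bound peaks, 7 were nearest to a gene other than the OXPHOS gene, as were 2 of 2 HDAC3-only and 14 of 31 HNF4α distal peaks and 3 of the 10 pairs of a gene and a distal PROX1-only peak. At promoters this held for 1 of 15 HNF4α peaks and for none of the 8 HDAC3 or PROX1 peaks.

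HNF4α peaks at OXPHOS promoters were mostly without HDAC3 or PROX1. Of the 15 peaks, 12 (80%, CI 54.8 to 93) touched no peak of either factor, against 52.9% of the 2636 HNF4α peaks at the promoters of all genes and 3 of 17 (17.6%, CI 6.19 to 41) at those of fatty acid oxidation genes. Among ribosomal protein genes the count was 4 of 7 (57.1%, CI 25 to 84.2). At distal sites the OXPHOS share was 15 of 31 (48.4%, CI 32 to 65.2), beside 31.1% over all genes. By gene, 11 of the 14 genes with HNF4α at the promoter had no HDAC3 or PROX1 peak there (78.6%, CI 52.4 to 92.4, beside 47.9% of all genes with HNF4α at the promoter), and 8 of them had none within 10 kb (57.1%, CI 32.6 to 78.6, beside 27.6%). These 8 were *Atp5g2*, *Atp5h*, *Atp5k*, *Atp5o*, *Ndufa2*, *Ndufa5*, *Ndufb2* and *Ndufb3*. The HNF4α peaks at OXPHOS promoters had a median score of 32 (range 25.4 to 73.5), beside 39.6 at all promoters, and the distal ones a median of 41.9 (range 20.3 to 113.1), beside 42.9. At OXPHOS promoters the median score was 32 for the 12 peaks without HDAC3 or PROX1 and 31.1 for the 3 with either, whereas over all promoters it was 34.4 without and 48.1 with either. The part of the score in the share without HDAC3 or PROX1 was not tested.

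**Figure D4:**
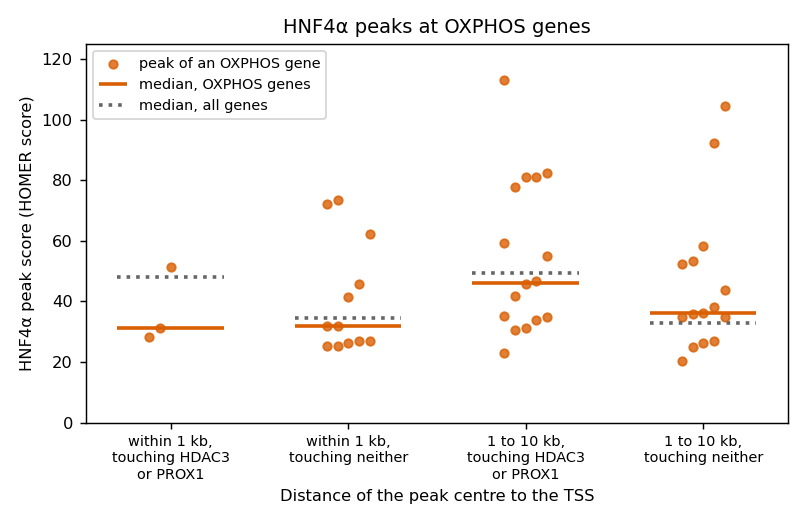
HOMER scores of the 46 HNF4α peaks near OXPHOS genes (points), by distance to the TSS and by whether the peak touches a peak of HDAC3 or PROX1. Solid lines are medians of the points and dotted lines medians over the peaks of all genes. Of the 15 peaks within 1 kb, 12 touch neither factor, with scores from 25.4 to 73.5.

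Among the HNF4α peaks of OXPHOS genes the HNF4 word was found at a lower share, and the ERR word at a higher share, than in the list as a whole. In windows of 200 bp on the peak centre, the HNF4 word was in 9 of 46 peaks (19.6%, CI 10.7 to 33.2) near OXPHOS genes, beside 34.7% of all 24253 HNF4α peaks. Without mismatch it was in 2 of 46 (4.35%, CI 1.2 to 14.5), beside 5.88%, which lies inside that interval. By location it was in 4 of 15 promoter peaks (*Atp5b*, *Atp5h*, *Ndufa5* and *Ndufb3*), beside 31.7% of all promoter peaks, and in 5 of 31 distal ones, beside 34.7%. The ERR word, in contrast, was in 5 of 46 (10.9%, CI 4.73 to 23), beside 1.5% of the whole list, and in windows of 100 bp in 3 of 46 (6.52%, CI 2.24 to 17.5), beside 1.02%. The 5 in windows of 200 bp were the promoter peaks of *Atp5h* and *Ndufa2* and the distal peaks of *Sdhd*, *Atp5o* and *Cox7b*. Repeats were not masked, and whether a word lay in a repeat was not tested. Of the 18 co-bound peaks, 2 held the HNF4 word (11.1%, CI 3.1 to 32.8), beside 20.9% of all co-bound peaks, 1 the ERR word, beside 1.69%, and 1 the NRF1 word, beside 0.0349%, the last 2 both being the *Atp5j* peak. The ETS and NRF1 words were in 0 of the 46 HNF4α peaks, and the YY1 and C/EBP words in 2 each. These 4 counts are given without the shares over the whole list and are not read as high or low. The median GC content was 52% in the HNF4α promoter peaks of OXPHOS genes and 52.5% in all HNF4α promoter peaks. The median ratio of observed to expected CpG was 0.653 against 0.404, and its part in the word shares was not tested.

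In the promoters themselves, from 250 bp upstream to 50 bp downstream of the 5′ end of each gene, the order of the words was another. The NRF1 word was in 8 of 93 OXPHOS promoters (8.6%, CI 4.42 to 16.1), beside 2.11% of all 22219 promoters, and 3 of the 8 were in complex V (*Atp5g2*, *Atp5k* and *Atp5l*). The YY1 word was in 11 (11.8%, CI 6.73 to 19.9), beside 3.3%, and 6 of these were in complex I, among them *Ndufa2* and *Ndufs4*. ERR words were in the promoters of *Sdhd* and *Atp5g3* (2.15%, CI 0.592 to 7.51), beside 0.36%. The ETS word was in 6 (6.45%, CI 2.99 to 13.4), beside 4.72%, and the C/EBP word in 9 (9.68%, CI 5.18 to 17.4), beside 6.45%. The HNF4 word was in 1, that of the testis isoform *Cox8c*, which had no peak (1.08%, CI 0.19 to 5.84), beside 8.08% of all promoters. A match is a run of letters in the window and does not show that a factor binds there.

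Genes of the same pathway outside the prefixes were counted alike. Of 9 other genes of the chain, 6 had HDAC3 or PROX1 at the promoter (66.7%, CI 35.4 to 87.9), beside 9.19% of all genes. *Etfdh*, which passes electrons from fatty acid oxidation to the chain, and *Slc25a5*, an ADP/ATP carrier, were co-bound there. *Etfa* and *Etfb*, the subunits of the electron transfer flavoprotein, had HDAC3-only peaks, and *Cycs*, cytochrome *c*, and *Usmg5*, a small ATP synthase subunit, had PROX1-only peaks. Of these 6, 5 also had HNF4α at the promoter, with scores from 39.6 to 55.6, while *Cyc1*, *Slc25a4* and *Atpif1* had no peak. Of 24 assembly genes, 3 had HDAC3 or PROX1 at the promoter (12.5%, CI 4.34 to 31), an interval that includes the 9.19% of all genes. They were *Cox18*, *Cox19* and *Acad9*, each with a PROX1-only peak. Of 12 regulators of mitochondrial genes, 2 had HDAC3 or PROX1 at the promoter (16.7%, CI 4.7 to 44.8), an interval that also includes 9.19%. *Ppargc1a*, a coactivator, had an HDAC3-only promoter peak and *Esrra*, which encodes ERRα, a PROX1-only one. Distal co-bound peaks were listed near 5 of the 12 (41.7%, CI 19.3 to 68). This interval includes the 20.2% of all genes with a co-bound peak within 10 kb. These were *Gabpa*, *Gabpb1*, *Ppargc1a*, *Ppargc1b* and *Tfam*, the mitochondrial transcription factor. The highest HNF4α scores near the last 4 were 84.8, 95.2, 45.2 and 73, and *Gabpa* had no HNF4α peak. The co-bound peak of *Gabpa* was the *Atp5j* promoter peak described above, 1238 bp from the *Gabpa* TSS. *Nrf1* and *Yy1* had no peak within 10 kb.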

How the data were processed

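The labels give 3 HDAC3 and 3 PROX1 libraries of control liver and 2 HNF4α libraries of HNF4A floxed liver. The authors aligned reads with Bowtie 0.12.7 to mm9, pooled replicates and called peaks with HOMER against IgG. They set a lower signal cutoff for HDAC3 peaks than for PROX1 or HNF4α peaks. At a co-bound peak a still lower signal of the other factor was enough, so the single-factor classes depend on these cutoffs. For its overlap counts the study also describes filtering HNF4α peaks on the *Hnf4α* knockout. The deposited HDAC3 and PROX1 lists hold positions, each with 3 empty lines that were left out. The deposited HNF4α list also holds a score per peak, whose scaling is not given in the sources used here. Read counts were not used, and how deeply each library was sequenced is unknown. The lists already carry the authors' co-bound classes, with 20039 identical peaks, and co-binding is therefore not an independent comparison of 2 peak calls.

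Genes came from GENCODE vM1 on NCBIM37, and a peak was assigned to every gene with a protein-coding TSS within 10 kb (promoter: 1 kb) of its centre. *Ndufb8* has 2 gene models and was counted once. HNF4α was counted at a peak where 1 HNF4α peak overlapped 50% or more of its length. Intervals of shares are 95% Wilson intervals, and those of differences are Newcombe intervals. Peak classes were compared with Fisher's exact test, where the study used Pearson's chi-square test, since counts were small. No gene list was tested against another. Annotation, windows and words were computed with Python 3.11.15, numpy 2.4.6 and scipy 1.17.1, and the code was tested on simulated data. The members, gene lists and alternatives were chosen with earlier results of these data known. The genes named are those with HDAC3 or PROX1 within 1 kb, with an HDAC3-only peak within 10 kb, with the 10 highest HNF4α scores or the most HDAC3 or PROX1 peaks, and those without a peak; the remaining genes with a peak were added where they are described. Some results are not reported here, although all genes enter the counts. RNA-seq, H3K27Ac and knockout libraries were not analysed here.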

Additional observations from a re-analysis of the deposited data

How the results depend on the processing

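Alternatives changed the windows, the TSS, the gene set, the nearest-gene rule, the HNF4α list and overlap, and the test. The genes within 10 kb numbered 8 for HDAC3 with a window of 5 kb (8.6%, beside 16% of all genes) and 29 with 20 kb (31.2%, beside 30.1%), against 13 at 10 kb. With 20 kb they numbered 31 for PROX1 (33.3%, beside 34.1%) and 22 for co-bound peaks (23.7%, beside 28.2%), against 20 and 9 at 10 kb. With 5 kb the co-bound count was 6 (6.45%, beside 14.8%). With HNF4α scores above the list median, HNF4α was near 15 genes within 10 kb (16.1%, beside 17.4%) and 5 within 1 kb (5.38%, beside 5.27%), against 30 and 14 with the whole list. Co-bound promoters fell to 1 at 500 bp (1.08%, beside 4.1%), and PROX1-only promoters numbered 8 at 2 kb (8.6%, beside 4.06%), against 2 and 4 at 1 kb. The promoter minus distal difference in HNF4α at co-bound peaks changed sign to 47.1 points at 500 bp, with 1 promoter peak. That in peaks without co-binding was 46.4 points at 500 bp, 38.1 at 2 kb and 42.1 with the 20 kb window, and passed an unadjusted test in each (34.3 in the main setting). The HNF4 word without mismatch was in 4.35% of the HNF4α peaks of OXPHOS genes, beside 5.88% of all HNF4α peaks, and in 5.56% of their co-bound peaks (11.1% with a mismatch), beside 2.84%. In windows of 100 bp the ERR word was in 6.52% (10.9% in 200 bp), beside 1.02%, and the YY1 word in 2.17% (4.35%), beside 0.33%, of HNF4α peaks; these shares rest on 1 to 5 peaks. The causes were not tested, beyond wider windows holding more peaks. Of the remaining values, the tested differences kept their direction and their side of the threshold, and the counts of genes stayed within 1.5 times. No paired analysis was possible because replicates were pooled before peaks were called, and leaving out a replicate was not possible for the same reason.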
